A study of Mus musculus with 6 samples.

Results

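5 genes of the cilium and of hedgehog signaling were followed through RNA sequencing of the tailbud of mouse embryos: Smo, Tmem67, Invs, Anks6 and Dnah5. They are 5 of the 56953 features of the count table and were chosen by role among the genes of 3 stretches of the table where row names fit the reads, stretches that were found from expression levels. Earlier results of these data were known at that choice, but no difference between genotypes enters it. The tailbud is the posterior end of the embryo, where neuromesodermal progenitors give rise to spinal cord and mesoderm. There were 3 libraries of wild-type embryos and 3 of embryos with the genotype Fgfr1 FCPG/FCPG, all at embryonic day 9.5 per the labels. The FCPG allele carries point mutations in the residues through which the FGF receptor binds its effectors, in all cells of the embryo. The comparison asks how transcription changes when canonical signaling through Fgfr1 is disrupted by this allele. Signaling itself was not measured. The labels give neither the strain nor the litters, nor whether a library is 1 embryo or a pool. P-values here therefore measure the spread between these libraries, part of which may be technical.

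The primary cilium is a solitary, immotile antenna on most embryonic cells, and hedgehog signaling in vertebrates runs through it. When ligand binds Patched, Smoothened, the product of Smo, enters the cilium and the Gli transcription factors are turned into activators. The transition zone at the cilium's base, which needs Tmem67 (meckelin), gates what enters. Beyond it lies the inversin compartment, built by Invs with Anks6 and the kinase Nek8. Motile cilia, such as those of the node, beat with outer dynein arms, of which Dnah5 is a heavy chain. Loss of Tmem67, Invs or Anks6 causes cystic kidney disease, and loss of Dnah5 causes immotile cilia.

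The bases before the start of transcription are shown for the members found in RefSeq's promoter table, Smo, Invs and Dnah5, to set 2 windows rich in CG beside 1 that is not. The table is on build GRCm38.p6, which is older than the build named for the counts. Each line holds the 250 bases before the start on the plus strand, 5′ to 3′, with every CG dinucleotide in capitals. The windows are chr6:29735247-29735496 for Smo, chr4:48279510-48279759 for Invs and chr15:28203516-28203765 for Dnah5.
Smo: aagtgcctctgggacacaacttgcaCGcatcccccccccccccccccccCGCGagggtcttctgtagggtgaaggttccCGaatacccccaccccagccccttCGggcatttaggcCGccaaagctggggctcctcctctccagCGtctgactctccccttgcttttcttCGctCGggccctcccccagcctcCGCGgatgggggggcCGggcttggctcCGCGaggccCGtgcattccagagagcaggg
Invs: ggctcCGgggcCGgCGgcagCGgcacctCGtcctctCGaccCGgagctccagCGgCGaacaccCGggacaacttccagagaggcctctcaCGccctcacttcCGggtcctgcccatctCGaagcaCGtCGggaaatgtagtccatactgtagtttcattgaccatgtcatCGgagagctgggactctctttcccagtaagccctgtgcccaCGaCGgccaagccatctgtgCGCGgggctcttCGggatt
Dnah5: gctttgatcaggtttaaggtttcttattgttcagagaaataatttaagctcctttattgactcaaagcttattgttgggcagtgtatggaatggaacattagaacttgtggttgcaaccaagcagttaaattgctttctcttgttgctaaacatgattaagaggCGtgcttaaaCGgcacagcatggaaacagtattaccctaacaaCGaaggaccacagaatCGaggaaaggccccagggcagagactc
The Smo window had 15 CG dinucleotides and 68.4% G or C, and the Invs window had 21 and 63.2%. The Dnah5 window had 4 CG dinucleotides and 41.2% G or C. Over the 32841 windows of the table the medians were 6 and 52.4%. The letters GTTGC, the core of the half-sites bound by RFX factors, known regulators of ciliary genes, were searched on both strands. They occurred 3 times in the Dnah5 window, of which 2 matches overlap in ggttgcaacc, and not in the windows of Smo and Invs. At least 1 match stood in 29.9% of all windows. ACCACCC, the core of the Gli motif, was in none of the 3 windows and in 3.92% of all. These matches describe the letters only.

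Library totals ran from 16984568 to 27316475 counts. Row names could be trusted over a small part of the table only. Of 957 ubiquitously expressed genes, such as those of ribosomes and proteasomes, 320 reached a mean of 10 CPM (counts relative to the library's total). On 3 stretches of chromosomes 4, 6 and 15 all 45 did, with a median of 308 CPM, which follows from how the stretches were chosen. Among other protein-coding genes, 76.5% of 409 inside and 37.8% of 20276 outside reached 1 CPM. Genes of families silent in most tissues, which should not, reached it in 2 of 12 cases inside (16.7%) and in 150 of 1675 outside (8.96%). The members lie on these stretches by the way they were chosen. Smo, Invs and Anks6 lay toward the ends of theirs: of the 10 ubiquitous genes before each, 10 reached 10 CPM, and of the next 10, 5 did after Smo, 4 after Invs and 6 after Anks6. Around Dnah5, 10 of 14 did, and around Tmem67 13 of 13. With a minimum of 20 CPM the chromosome 15 stretch dropped out, with Dnah5, its neighbours such as Trio and Ctnnd2, Ropn1l and Sema5a. The chromosome 6 stretch then ended before Cep41. The names are thus not secured gene by gene. Among the 3 protein-coding genes on either side of each member, 29 of 30 reached 1 CPM and 24 reached 10 CPM. Fgfr1 lay outside, and a point mutation need not alter its transcript level, so the genotype labels were not checked in this way.

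None of the 5 members passed the test between genotypes (edgeR quasi-likelihood test, Benjamini-Hochberg adjusted p below 0.05). Over all 14550 tested features 7.92% passed in either direction, 4.25% higher and 3.67% lower in the mutant. With 3 libraries against 3, an exact two-sided permutation test cannot give a p below 0.1.

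Smo, the hedgehog signal transducer, read 977, 948 and 957 CPM across wild-type replicates 1 to 3, and 951, 834 and 920 CPM across mutant replicates 1 to 3 (the same order is used below). The lowest value was that of mutant replicate 2, and the groups overlapped. Wild type averaged 961 ± 14.5 CPM and the mutants 902 ± 60.2 CPM (SD, n = 3 each). The log2 fold change, mutant over wild type, was -0.09 ± 0.07 (SE; edgeR adjusted p 0.479). The 95% interval of the ratio of mutant to wild type ran from 0.835 to 1.05, so larger falls of Smo lie outside it. Smo was the steadiest member in wild type, with a coefficient of variation of 1.51%, against 6.68% in the mutants. It also had the most raw counts of the members, 17882 to 26211 per wild-type library. The part of counting noise in this ranking was not tested.

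Tmem67, of the transition zone, read 43.9, 47.8 and 45.4 CPM across wild type, and 50.8, 61.3 and 49.6 CPM across the mutants. Every mutant value was above every wild-type value. Groups without overlap were common, at 31.9% of all tested features. The log2 fold change was 0.24 ± 0.11 (SE), which missed the threshold (edgeR adjusted p 0.212). The interval of the ratio ran from 0.993 to 1.40. Mutant replicate 2 was highest, and without that library the log2 fold change was 0.14. Tmem67 shares 3.73% of its exon bases with Rbm12b2 on the opposite strand. The kit was stranded but the strand setting of the counting was not given, so some of its counts may come from that gene, which stood at 129 ± 5.17 and 139 ± 8.50 CPM.

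The inversin compartment was represented by its scaffold Invs and by Anks6, which links Invs to Nek8. Invs read 65.9, 62.2 and 73.8 CPM across wild type, and 70.9, 83.2 and 63.7 CPM across the mutants. The groups overlapped, with mutant replicate 2 highest. Its log2 fold change was 0.11 ± 0.12 (SE; edgeR adjusted p 0.619), and the interval of the ratio ran from 0.889 to 1.31. Without mutant replicate 2 it was 0.01. Invs shares 1.98% of its exon bases with Tex10 on the other strand. Anks6 read 33.4, 46.7 and 42.4 CPM across wild type, and 32.3, 37.6 and 25.9 CPM across the mutants. Wild-type replicate 1 lay below mutant replicate 2, so the groups overlapped, with mutant replicate 3 lowest. The log2 fold change of Anks6 was -0.36 ± 0.17 (SE; edgeR adjusted p 0.229). The interval of the ratio ran from 0.598 to 1.02, so it held both no change and a sizeable fall.

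Dnah5, a heavy chain of the outer dynein arm, was at the limit of detection. Raw counts were 13, 14 and 5 across wild type, and 8, 20 and 9 across the mutants. These counts correspond to 0.484, 0.515 and 0.268 CPM and to 0.333, 1.13 and 0.343 CPM. Mutant replicate 2 stood apart, and the other mutants lay within the wild-type range. The log2 fold change was 0.41 ± 0.57 (SE; edgeR adjusted p 0.694), and without that library it was -0.34. The interval of the ratio ran from 0.535 to 3.32, so both a clear rise and a clear fall lie within it at this depth. Its neighbours Trio and Ctnnd2 stood at 384 ± 25.9 and 24.1 ± 2.51 CPM in wild type. The low counts were thus not shared by the rows on either side, whose names are no more secure than that of Dnah5 (above).

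**Figure D1:**
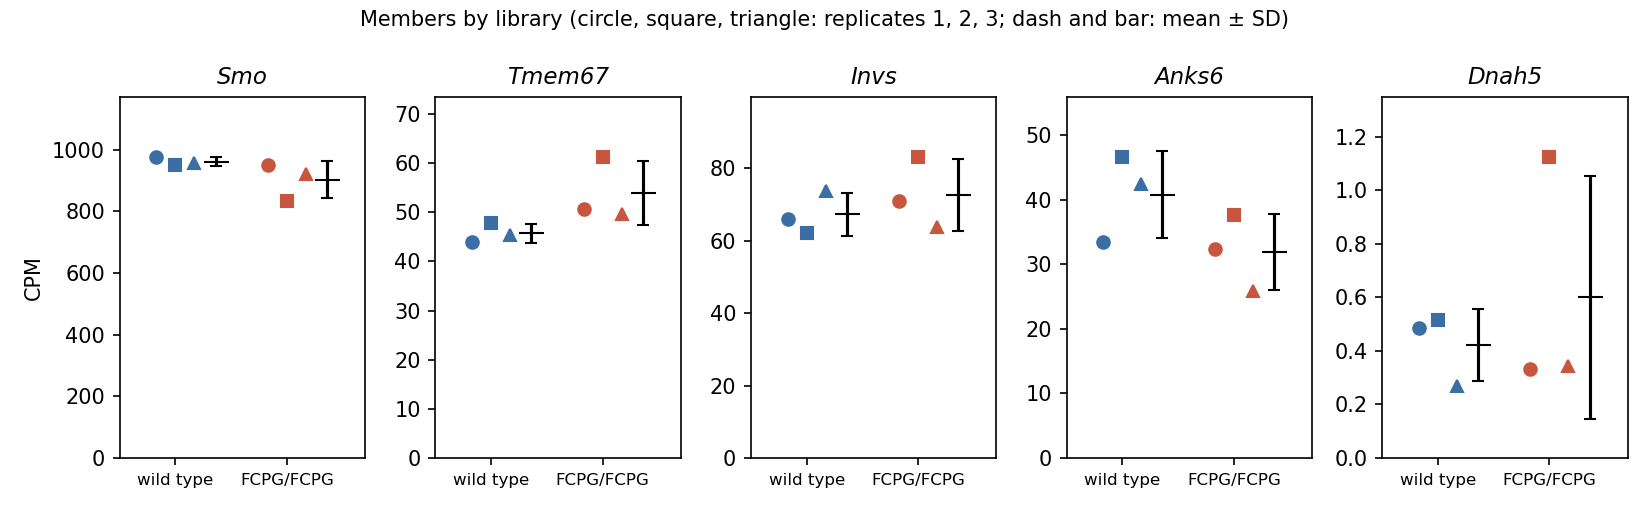
Level of each member in CPM (vertical axes, from 0) in each library, with wild type in blue and Fgfr1 FCPG/FCPG in red; symbols give the replicate and dashes with bars the mean ± SD of 3 libraries. The groups are separate only for Tmem67, and mutant replicate 2 (square) is the highest library for Tmem67, Invs and Dnah5 and the lowest for Smo.

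Per length, Smo stood far above the other members. Its row lay near the end of its stretch, as given above, and this level holds only as far as its name does. In wild type it had 170.9 ± 2.59 CPM per kb of exon (SD, n = 3), against 7.62 ± 1.27 for Anks6, 5.90 ± 0.258 for Tmem67, 5.89 ± 0.518 for Invs and 0.0270 ± 0.00863 for Dnah5. Among wild-type libraries the range of Invs, 5.44 to 6.46 CPM per kb, overlapped that of Tmem67, 5.67 to 6.18, and that of Anks6, 6.23 to 8.71. By these ranges the neighbours in the order were not separated, apart from Anks6 above Tmem67 by a narrow margin. Within each wild-type library, however, Anks6 stood above both Invs and Tmem67, while the order of Invs and Tmem67 varied between libraries. In the mutants the order of their means was different, with Tmem67 at 6.96 ± 0.833, Invs at 6.35 ± 0.863 and Anks6 at 5.96 ± 1.10 CPM per kb. The ranges of the mutant libraries overlapped, but each mutant library showed this same order. Lengths are the union of all annotated exons, which lowers the value of genes with many alternative exons.

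**Figure D2:**
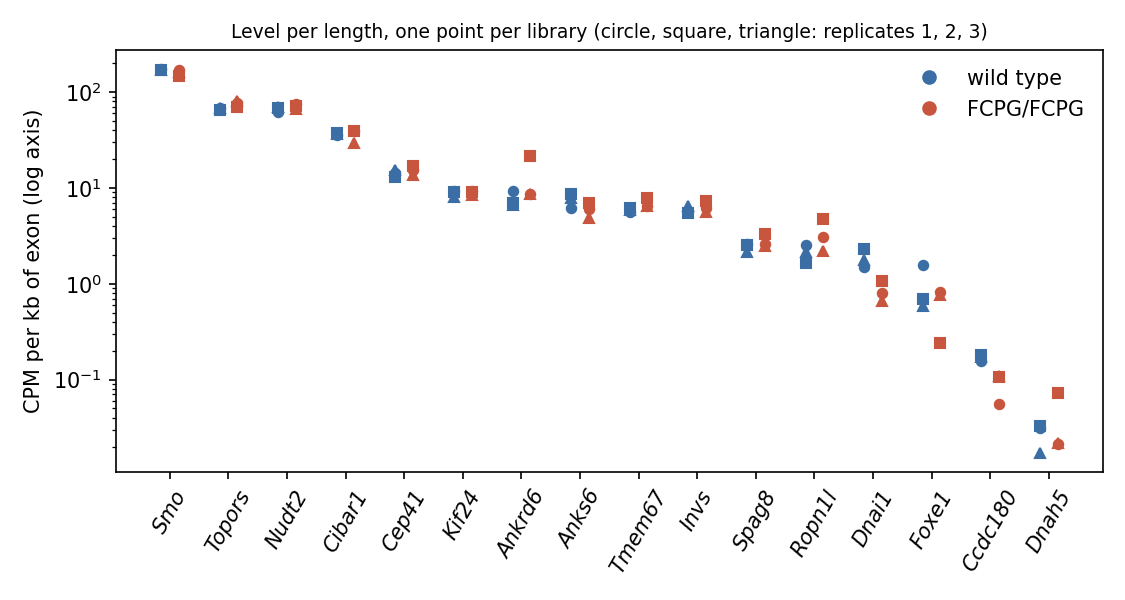
CPM per kb of exon (log axis) of the 16 tested cilium and hedgehog genes of the stretches, ordered by the wild-type mean, with wild type in blue, Fgfr1 FCPG/FCPG in red and 1 point per library. Smo is highest at 170.9 CPM per kb in wild type, Anks6, Tmem67 and Invs lie together between 5.89 and 7.62, and Dnah5 is lowest.

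The wider pathway was read through a list of 223 entries for cilium and hedgehog genes. Of these, 212 had a row and 17 lay on the stretches, the members among them. These were 1 of 18 hedgehog ligands and receptors (Smo), 1 of 27 transducers and targets, 2 of 30 transition zone genes, 2 of 6 inversin compartment genes, 6 of 46 motile cilium genes, 5 of 46 basal body and assembly genes, and 0 of 50 of intraflagellar transport and the BBSome. Some motile cilium genes are listed under both an older and a newer name, so the 46 entries there and the 223 in all exceed the numbers of genes. The Patched, Gli and Shh genes lay outside, and Foxe1 was the only listed hedgehog target inside. Of the 17, 16 passed the filter on low counts. Among them 0 were higher and 1 was lower at an adjusted p below 0.05 (edgeR), which is 6.25%. In either direction 13.6% of the tested features of the stretches and 7.92% of all tested features were called. An unadjusted p below 0.05 (edgeR) was reached by 3 of the 16 (18.8%), against 35.1% of the tested features of the stretches and 25.6% of all. The median log2 fold change of the 16 was 0.10, against 0.09 for the 515 tested features of the stretches and -0.01 for all tested features.

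The gene that fell was Dnai1, an intermediate chain of the same outer dynein arm as Dnah5 (listed as Dnaic1 in the annotation). It read 4.17, 6.44 and 4.92 CPM across wild type, and 2.20, 2.98 and 1.83 CPM across the mutants, with no overlap. Its mean dropped from 5.18 ± 1.16 to 2.34 ± 0.590 CPM (SD, n = 3 each). The log2 fold change of Dnai1 was -1.16 ± 0.27 (SE; edgeR adjusted p 0.0370). The call ended without wild-type replicate 2 or 3, without mutant replicate 1 or 3 and with a term for embryo sex (adjusted p from 0.0663 to 0.158). By the level of 4 rows with Y-linked names, 1 of 3 wild-type and 2 of 3 mutant libraries read as male. These were wild-type replicate 1 and mutant replicates 2 and 3, so sex appeared unbalanced between the groups. The 4 rows lie outside the stretches, so this reading and the sex term hold only as far as those names do. In the authors' deposited table Dnaic1 had a log2 fold change of -1.15 and an adjusted p of 0.00341, and the members had adjusted p of 0.233 (Anks6) to 0.778 (Dnah5). Ccdc180, a protein of motile cilia, stood lower in every mutant, at 0.896 ± 0.0697 against 0.475 ± 0.159 CPM, but did not pass (edgeR adjusted p 0.174). Ropn1l, of the radial spoke, stood at 2.01 ± 0.420 and 3.18 ± 1.22 CPM and Spag8 at 4.03 ± 0.394 and 4.65 ± 0.712 CPM. Iqub, at 0.173 ± 0.154 and 0.174 ± 0.0521 CPM, had too few counts to be tested. The motile cilium genes thus stood at 6.44 CPM or less in every library, and those tested differed in sign.

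Of the genes listed under basal body and cilium assembly none passed. Topors, a ubiquitin and SUMO ligase also found at the base of photoreceptor cilia, read 261, 251 and 262 CPM across wild type, and 297, 271 and 315 CPM across the mutants, without overlap. Its log2 fold change was 0.19 ± 0.08 (SE; edgeR adjusted p 0.178). Ankrd6 (diversin), a regulator of Wnt signaling at the basal body, read 51.1, 37.8 and 36.3 CPM across wild type, and 47.0, 117 and 47.9 CPM across the mutants. Its log2 fold change, 0.76 ± 0.34 (SE; edgeR adjusted p 0.212), rested on mutant replicate 2 and was 0.19 without it. Kif24, a kinesin that restrains cilium assembly, stood at 70.8 ± 5.32 and 71.8 ± 4.14 CPM. Cep41, needed for glutamylation of ciliary tubulin, stood at 71.3 ± 5.72 and 76.1 ± 7.82 CPM. Nudt2, a nucleotide hydrolase counted here by its place on the list alone, stood at 56.2 ± 3.37 and 60.05 ± 3.68 CPM. Cibar1 (Fam92a), a partner of Cby1 at the ciliary base and a near neighbour of Tmem67, stood at 171 ± 4.99 and 169 ± 25.6 CPM. Foxe1, a forkhead factor listed with the hedgehog targets, stood at 2.66 ± 1.48 and 1.71 ± 0.903 CPM (edgeR adjusted p 0.486).

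**Figure D3:**
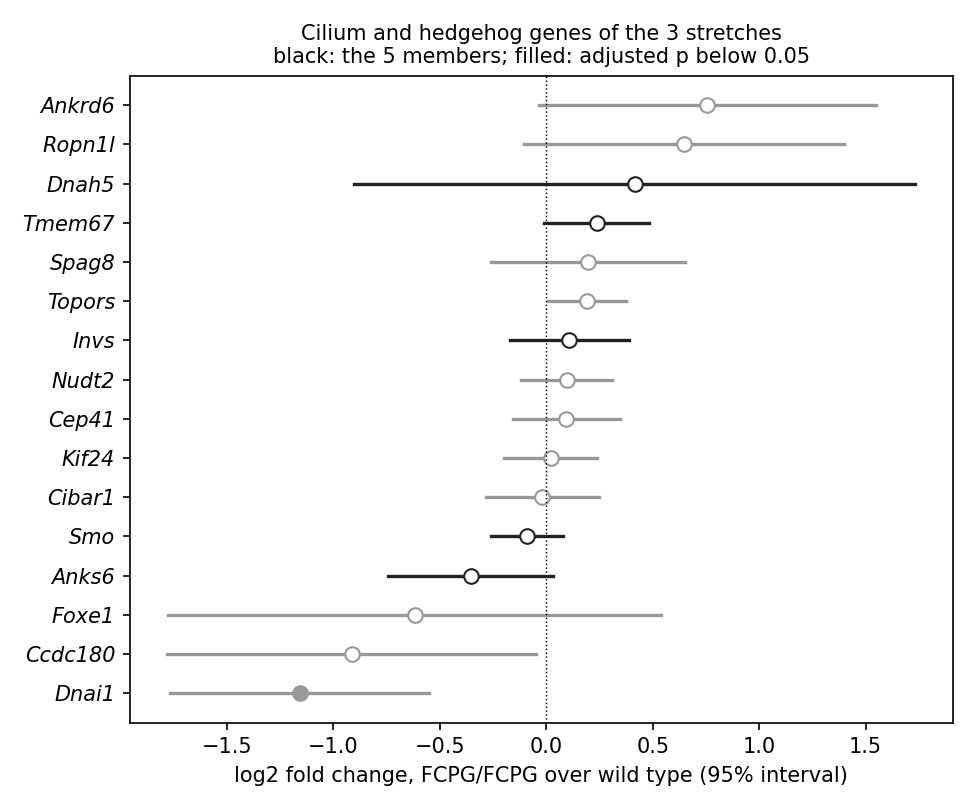
Log2 fold change of Fgfr1 FCPG/FCPG over wild type with its 95% interval (horizontal axis) for the 16 tested genes of the list, the members in black and the others in grey. Only Dnai1, at -1.16, is filled for an adjusted p below 0.05, and the interval of Dnah5 is the widest among the members.

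Mutant replicate 2 was the highest library for 7 of the 16 genes (43.8%), including Tmem67, Invs and Dnah5. It was highest for 35.7% of the tested features of the stretches and for 22.9% of all, so the share among the 16 was near that of their stretches. This library also had the lowest total, 16984568 counts. Pou3f2, a factor of neural progenitors and the only one of 5 neural markers on the stretches, stood at 306 CPM there, at 20.8 and 49.8 CPM in the other mutants and at 4.23 to 11.7 CPM in wild type. Of 9 markers of primitive erythroid cells 2 lay on the stretches, Hemgn and Tmod1. Their summed level was 69.2 to 120.0 CPM in wild type and 17.6 to 26.1 CPM in the mutants. Hemgn was lower (edgeR adjusted p 0.00627), while for Tmod1 the groups overlapped and the test was not passed (edgeR adjusted p 0.249). Esrp1, 1 of 5 surface ectoderm markers, stood at 136 to 174 and at 71.5 to 126 CPM. Wnt2, 1 of 4 of the allantois, stood at 0.428 to 7.79 and at 22.5 to 37.5 CPM. Esrp1 and Wnt2 did not pass (edgeR adjusted p 0.0730 and 0.0584), whereas Pou3f2 did (edgeR adjusted p 0.0411). The part of these cell types, of depth and of this library in the members' values was not tested. In bulk tissue fewer cells of a type and less RNA per cell cannot be told apart. None of the 9 markers fixed for the labelled tissue, T and Fgf8 among them, lay on the stretches, so the tissue label was not checked.

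**Figure D4:**
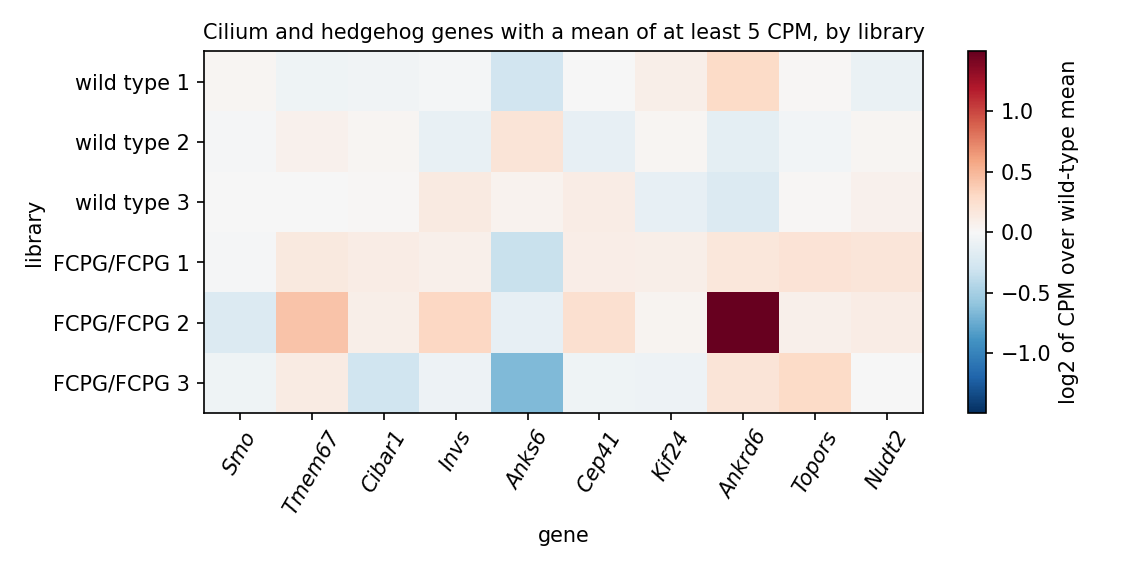
Log2 of CPM over the wild-type mean (colour) for the 10 list genes with a mean of at least 5 CPM, by library. Mutant replicate 2 is highest for Tmem67, Invs, Cep41 and Ankrd6, with Ankrd6 at 117 CPM, and mutant replicate 3 is lowest for Anks6, at 25.9 CPM.

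The features of the stretches whose profile over the 6 libraries was most like each member were sought among 360 others with a mean of at least 5 CPM. Likeness was the root mean square difference of log2 CPM, each gene centred on its own mean, and the genotype enters it as well as the libraries. For Smo they were Exosc3, an exosome subunit, at 0.0372, Nrf1, a factor of mitochondrial biogenesis, at 0.0382, and Ndufaf6 at 0.0475, where the median over all 360 was 0.224. For Tmem67 they were Mob3b, Ufl1 and Zfp800, at 0.0463 to 0.0502. For Invs the closest was Cep41, whose name is less secure (above), at 0.0336, followed by Rbm12b1 at 0.0517 and Bet1 at 0.0707. Anks6 had no close match: Sema5a, Tdrd7 and Chchd7 stood at 0.138 to 0.148, with a median of 0.337. Of the genes around the members, 1 of the 29 tested rose and 2 fell (edgeR). These are 10.3%, near the 13.6% called on the stretches and the 7.92% called over all tested features. Ctnnd2, next to Dnah5 and less secure in name (above), rose by a log2 fold change of 1.13. On either side of Smo, Tspan33 fell by 1.27 and Strip2 fell by 1.23 on the log2 scale. The other neighbours of Smo (Irf5, Tnpo3, Ahcyl2 and Nrf1) did not pass.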

How the data were processed

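Polyadenylated RNA of microdissected tailbud was sequenced with a stranded kit, per the labels. Bowtie, featureCounts, DESeq2, DESeq and the mouse build mm39 are named, without versions, in the submitters' processing notes. Annotation and strand setting are not given in the sources used here. Raw counts per gene ID, as the authors deposited them, were the input of every test. Column names carry 10-5, unexplained, where the labels give day 9.5. The authors also deposited a DESeq2 table with, per the file headers, a mean normalized signal, a log2 fold change, a Wald score and p-values, used for comparison only.

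IDs were cut to 18 characters, and 52029 of 56953 matched a symbol. Gene order and exon lengths came from GENCODE M21, an older build. Stretches where names fit the reads came from a hidden Markov model with 2 states along 957 ubiquitous genes, called detected at 10 CPM (chance of detection 0.95 or 0.25, of switching 0.03, runs of at least 6 genes with a posterior above 0.95). They held 8.68% of the counts.

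edgeR 4.0.16 (R 4.3.3; filterByExpr, TMM, quasi-likelihood F test, no covariate) tested 14550 features, and intervals are at 95% from its t quantiles. The script was tested on counts simulated for this comparison. Of features changed 2-fold, 75 of 100 were called, and of those changed 4-fold, 100 of 100. Unchanged features made up 8.85% of the calls at an adjusted p below 0.05 (edgeR). CPM use TMM-scaled library sizes, and likeness used log2(CPM + 0.5). Alternatives were DESeq2 1.42.0, limma 3.58.1 (voom), other scaling, filters and terms, and each library left out. Members and lists were chosen with earlier results of these data known. Named genes are the members, the list and marker genes on the stretches, 3 neighbours on either side and the 3 most alike features; only neighbours that a result turns on are named. Deviations from the group means correlated at -0.229, -0.00512 and -0.00752 between libraries of the same number, so the numbers were not taken as pairs.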

Additional observations from a re-analysis of the deposited data

How the results depend on the processing

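In 14 alternative fits no member that could be tested passed, and Smo (log2 fold change -0.13 to -0.03), Tmem67 (0.14 to 0.30), Invs (0.01, without mutant replicate 2, to 0.21) and Anks6 (-0.48 to -0.21) kept their direction. Dnah5 could not be tested with at least 5 CPM in 3 libraries, had no adjusted p in the DESeq2 Wald test, and ran from -0.34 (without mutant replicate 2) to 0.71 over the libraries left out. Kif24 and Fam92a, both near 0 log2, changed sign. Kif24 was -0.0110 with the 5 CPM filter and ran from -0.0283 to 0.0790 over the libraries left out. Fam92a was 0.00224 without the low-count filter and 0.0253 with the term for embryo sex, and ran from -0.0894 to 0.114 over the libraries left out. In the list 1 gene, Ankrd6, was called higher without the low-count filter (adjusted p = 3.28e-07 by edgeR), against 0 otherwise and 0 to 0 over the libraries left out. The number lower was 0 with the 5 CPM filter, which removes Dnai1, and 0 with the term for embryo sex, and 0 to 1 over the libraries left out. Over all tested features, 618 were higher and 534 lower. These became 967 and 796 in the DESeq2 Wald test, 1352 and 1145 without the low-count filter, and 273 and 264 with the sex term. Over the libraries left out they ran from 68 to 767 and from 64 to 566, lowest without wild-type replicate 2. The replicate numbers gave no sign of pairing the libraries. With the replicate block 433 were higher and 411 lower, the list kept 0 higher and 1 lower, and the log2 fold changes of the members were -0.09, 0.23, 0.10, -0.36 and 0.36. Fits with a library left out hold fewer samples; otherwise the cause was not tested. Dnah5, with 5 to 20 counts per library, had the widest interval of the members.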

Other observations

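Anks6 and Invs act in the same compartment, and their ratio does not depend on the scaling of libraries. Chosen after their values were seen and so given without a test, the ratio of Anks6 to Invs counts was 0.507, 0.750 and 0.574 in wild-type replicates 1 to 3 and 0.456, 0.452 and 0.406 in mutant replicates 1 to 3. The lowest wild-type value, that of replicate 1, lay close above the highest mutant value. The means were 0.610 ± 0.126 and 0.438 ± 0.0280 (SD, n = 3 per group), and the highest wild-type value was that of replicate 2.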
